A study of Mus musculus with 24 samples.

Results

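Promoter fragments outside the cores of CpG islands were followed in brown adipose tissue (BAT) of infant mice. They were chosen by annotation alone, as the MspI fragments that the deposited table placed within 1000 bp of a gene start and did not class as an island core. The rule found 4325 of 65535 fragments, or 6.60%, assigned to 1609 genes on chromosomes 1, 2 and part of 3 of GRCm38. A fragment was tested where enough libraries had read it, which left 2048 fragments at 892 genes, and 2277 fragments could not be tested, 209 of them with no call in any library. The untested fragments were longer, with a median of 130 against 62 bp, and poorer in CpG. Reduced representation bisulfite sequencing (RRBS) cuts DNA at CCGG with MspI, and bisulfite then separates methylated from not methylated cytosines. The 24 libraries were from BAT of female C57BL/6J mice at postnatal day (PND) 12. In 12 libraries (DDT) the dams had been gavaged in pregnancy and after birth with DDT, an insecticide given as its p,p'-DDT and o,p'-DDT isomers together, and in 12 (VEH) with olive oil. Each library was a pool of female littermates, so that the litter was the replicate and variation between pups of a litter was not measured.

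Most mammalian promoters lie in CpG islands, stretches rich in CpG that usually stay free of methylation. Promoters with few CpGs are more often methylated, and many of them serve genes that are used in only 1 or a few cell types. Genes of the germline can carry methylation over a CpG-rich promoter in body cells, where these genes are silent.

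The label "outside CpG islands" held only in part. The table gave no island relation to 3014 of the 4325 fragments, placed 708 on an island shore and 48 on a shelf, let 553 straddle the edge of a core and gave a mixed class to the other two. When the island criteria on sequence (GC content over 50% and a CpG observed/expected ratio over 0.6) were applied to the 500 bp around each fragment, 68.1% of the tested fragments met them, including 1113 of the 1563 that the table tied to no island. The share was 98.1% among island core fragments within 1000 bp and 26.4% among tested fragments outside cores beyond 1000 bp. The table named only 1875 islands on the parts of these chromosomes that it held. The fragments are therefore described here by their sequence, as high CpG (GC content of at least 55% and a ratio of at least 0.75), low CpG (a ratio under 0.48) or intermediate CpG. The centres of 98.8% of the 4325 fragments lay within 1000 bp of some GENCODE M21 transcript start.

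The sequences of 10 fragments outside exons show the range from CpG-rich to CpG-poor and from unmethylated to methylated. Capitals mark the CpGs, and each run is the GRCm38 reference from 5′ to 3′. The measured value covers only the CpGs that reads reached. Per the sources used here, the reads were single-end and shorter than many fragments. CpGs far from both ends of a long fragment may therefore not have been read.
Snap25, chr2:136713338-136713417, plus strand: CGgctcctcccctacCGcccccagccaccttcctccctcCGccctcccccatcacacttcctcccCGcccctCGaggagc
Vav3, chr3:109340447-109340524, plus strand: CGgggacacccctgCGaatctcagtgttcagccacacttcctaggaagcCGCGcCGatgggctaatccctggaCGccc
Tbx15, chr3:99240249-99240285, plus strand: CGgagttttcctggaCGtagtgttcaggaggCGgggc
Phf17, chr3:41555589-41555718, plus strand: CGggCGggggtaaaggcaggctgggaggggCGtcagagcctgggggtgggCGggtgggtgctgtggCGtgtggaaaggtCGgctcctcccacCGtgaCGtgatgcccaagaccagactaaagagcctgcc
Ccna2, chr3:36572883-36572915, plus strand: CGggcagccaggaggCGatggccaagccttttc
Rag1, chr2:101648831-101649026, plus strand: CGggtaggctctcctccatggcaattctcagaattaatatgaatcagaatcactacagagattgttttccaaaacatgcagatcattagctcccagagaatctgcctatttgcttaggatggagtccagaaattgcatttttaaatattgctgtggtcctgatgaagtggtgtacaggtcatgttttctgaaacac
Neb, chr2:52338999-52339058, plus strand: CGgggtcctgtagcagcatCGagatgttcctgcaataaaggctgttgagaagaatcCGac
Hormad1, chr3:95559559-95559667, plus strand: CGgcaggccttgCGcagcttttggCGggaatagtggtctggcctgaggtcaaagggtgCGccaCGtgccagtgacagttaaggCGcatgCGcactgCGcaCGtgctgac
Urm1, chr2:29820549-29820640, plus strand: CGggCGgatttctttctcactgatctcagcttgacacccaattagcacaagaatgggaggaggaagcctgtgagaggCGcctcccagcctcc
Rprm, chr2:54085620-54085830, plus strand: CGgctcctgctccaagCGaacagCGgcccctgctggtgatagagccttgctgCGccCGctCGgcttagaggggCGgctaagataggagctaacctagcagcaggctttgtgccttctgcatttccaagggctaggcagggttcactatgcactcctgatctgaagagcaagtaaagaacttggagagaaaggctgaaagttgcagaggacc
Snap25 and Vav3 stood at or near 0% methylation in VEH, Tbx15 near 20%, Phf17 and Ccna2 between, and Rag1, Neb and Hormad1 above 90%. Hormad1 packs 9 CpGs into 109 bp and Rag1 has 1 in 196 bp, and both were methylated. Urm1 and Rprm were among the 10 fragments with the smallest p for DDT against VEH.

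The methylation level of a fragment was the percent of its CpG calls that were methylated, and needed at least 10 calls. The libraries held between 8371958 and 14124652 calls over the table, and a median tested fragment had between 120.5 and 313 calls. One library stood apart. Among the 192 tested fragments with a mean level between 20 and 80% in VEH, DDT replicate 4 had 97 with at least 20 calls, and 72 of these, or 74.2%, were under 2% or over 98%. In the other 23 libraries between 0 and 2.45% of such fragments lay at these ends of the scale, with 2.45% in DDT replicate 12. DDT replicate 4 also covered the fewest tested fragments (1459), followed by DDT replicate 3 (1756). The mean level of the 1208 fragments that every library covered was between 9.26 and 10.5% in VEH, 7.55% in DDT replicate 4, 8.82% in DDT replicate 12 and 12.0% in DDT replicate 3. The counts for DDT against VEH and the spread are also given without these libraries, and named differences without DDT replicate 4 where it had a level.

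**Figure D1:**
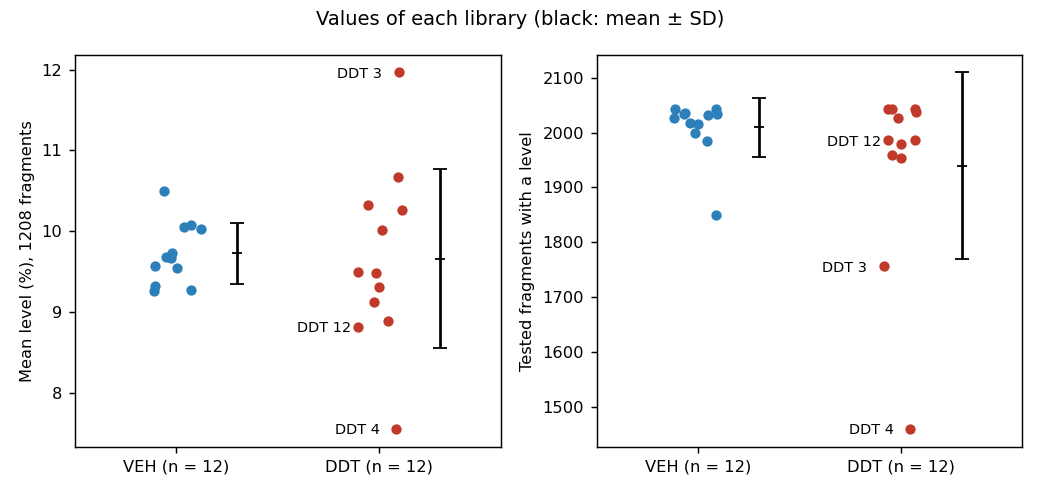
Values of each library, VEH in blue and DDT in red, with the mean ± SD in black. The left axis is the mean level in percent over the 1208 fragments that every library covered and the right axis the number of tested fragments with a level, and DDT replicates 3, 4 and 12 are named. DDT replicate 4 was lowest on both axes.

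In VEH, promoter fragments outside island cores were mostly little methylated. Their median level was 6.58%, and 1774 of 2048 fragments, or 86.6%, were under 20%. Only 82 fragments, or 4.0%, were over 80%, at 65 genes, and 192 lay between. Island core fragments within 1000 bp had a median of 3.66%, and fragments outside cores beyond 1000 bp a median of 61.1%. Averaged within each library over fragments with a level in all 12 VEH libraries, the level was 12.9% ± 0.482 (SD, n = 12) for promoter fragments outside cores and 5.48% ± 0.346 for island core fragments. The difference of 7.43 percentage points was positive in 12 of 12 libraries (two-sided exact sign-flip permutation test, p = 0.000488, the smallest 12 libraries can give). Fragments outside cores beyond 1000 bp were at 52.1% ± 0.852, and the promoter fragments lay below them in 12 of 12 libraries (difference -39.2 percentage points, same permutation test, p = 0.000488). These are 2 of 5 such differences tested within VEH, and each of the 5 had this p, also after Benjamini-Hochberg adjustment. This p measures how far the libraries agreed for fixed sets of fragments. It does not measure the spread between fragments or genes.

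The level followed the CpG content. High CpG fragments had a median of 3.91% (750 fragments), intermediate ones 7.50% (1017) and low CpG ones 22.4% (281). Only 1 of 750 high CpG fragments was over 80%, against 29 intermediate and 52 low CpG fragments. At an observed/expected ratio under 0.2, 10 of 15 fragments were over 80%, and at a ratio between 0.9 and 1 all 186 were under 20%. Across the 2048 fragments, which share libraries and often genes, Pearson's r between level and ratio was -0.50 and Spearman's rank correlation -0.47. The gap to island cores shrank to 1.79 percentage points for the promoter fragments that met the island criteria and widened to 19.7 for those below them, and both gaps were positive in every VEH library. With both sets below the criteria, the promoter fragments were also lower than fragments beyond 1000 bp in every VEH library. The difference was -40.0 percentage points (sign-flip permutation test, p = 0.000488). The criteria set a ceiling and did not match the sets in CpG content. The median ratio was 0.505 in promoter fragments below them and 0.425 in all tested fragments outside cores beyond 1000 bp.

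**Figure D2:**
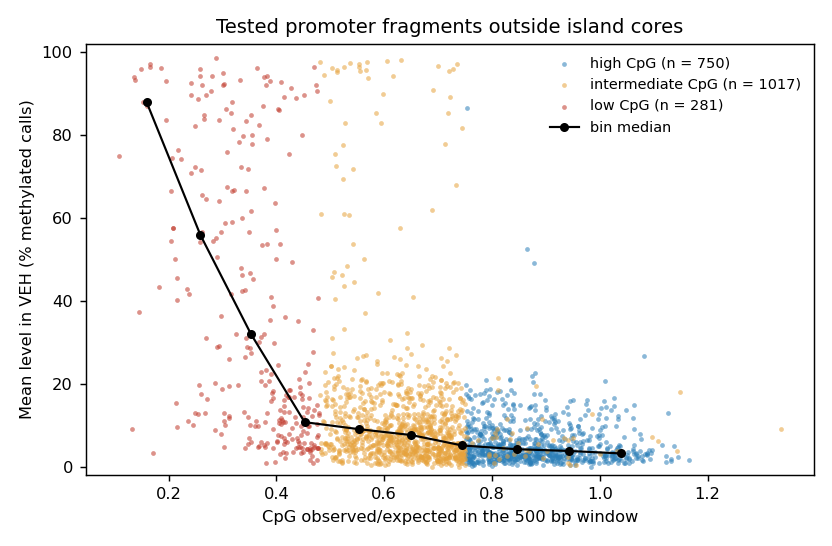
Mean level in VEH (y axis, percent of calls methylated) against the CpG observed/expected ratio in 500 bp (x axis) for the 2048 tested promoter fragments outside island cores, coloured by CpG class, with the median of each bin in black. The medians fall from 88.0% at a ratio under 0.2 to 3.16% above 1, and low CpG fragments lie over the whole range of levels.

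Low CpG content did not fix the level. Of the 281 low CpG fragments, 135 were under 20%, and 33 were under 5%. They included a fragment 46 bp upstream of Myl9, a myosin regulatory light chain of smooth muscle and other contractile cells, at 0.904% ± 0.697 (SD, n = 12), and a fragment 518 bp upstream of Pfkfb3, an enzyme that helps to set the rate of glycolysis, at 3.33% ± 1.002 (n = 12). Further low CpG fragments under 5% lay at Snap25 and Sv2a, which code for proteins of synaptic vesicle release, at Chrm4, a muscarinic receptor, and at the brown fat transcription factor Tbx15. Conversely, 9 fragments that met the island criteria were over 80%, at 6 names: Hormad1 with 3, the long noncoding RNA 1700018B24Rik with 2, Slc25a31, a mitochondrial ADP/ATP carrier used in sperm, Phf17, and the processed pseudogenes Gm9791 and Rps10-ps1. Each of the 4 tested fragments at the 3 processed pseudogenes (copies made from a spliced RNA) was between 93.9 and 97.9%, and their short reads may not be told apart from those of the parent gene. These names were chosen after their values were seen.

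The level rose with distance from the gene start on the upstream side. Fragments upstream of the start were at 17.7% ± 0.558 (SD, n = 12 libraries) and fragments inside the gene at 11.5% ± 0.471, a difference of 6.24 percentage points that was positive in 12 of 12 VEH libraries (sign-flip permutation test, p = 0.000488). Upstream, the mean rose from 13.9% within 250 bp to 17.4% at 250 to 500 bp, 21.6% at 500 to 750 bp and 30.6% at 750 to 1000 bp. Inside the gene it stayed between 10.3 and 12.4%. Island core fragments stayed between 5.11 and 6.62% over the same 8 bins. Upstream fragments were also poorer in CpG, with a median ratio of 0.626 against 0.721, and among fragments below the island criteria the difference between the sides was 1.56 percentage points. Without regard to the side, fragments within 250 bp were 0.954 percentage points below those more than 500 bp away (12.6% against 13.6%). That small difference turned to 2.43 in the other direction when calls were pooled and to 1.64 with at least 3 CpGs per fragment. Both of these also had p = 0.000488 in the sign-flip permutation test, so distance alone gave no stable direction. It was 0.211 in the DDT libraries, again in the other direction.

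**Figure D3:**
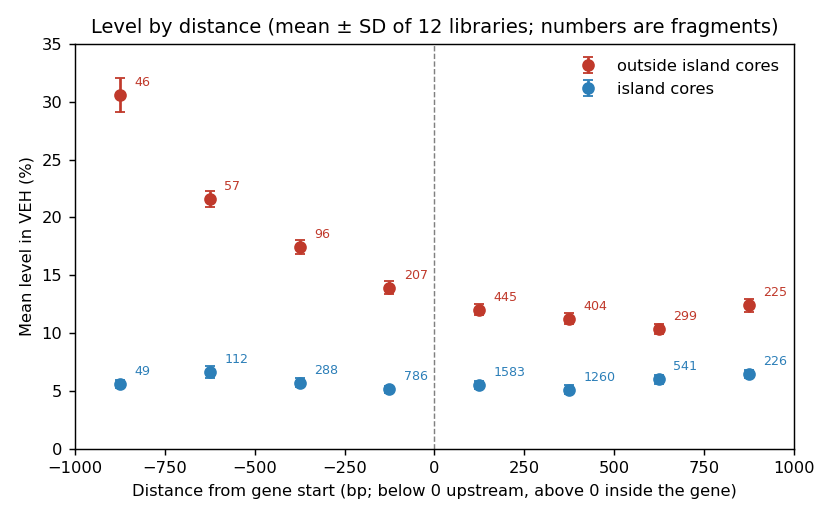
Mean level in VEH (y axis, percent, mean ± SD of 12 libraries) in 8 bins of distance from the gene start (x axis, bp, upstream at left) for promoter fragments outside island cores in red and island core fragments in blue, with the number of fragments beside each point. Outside cores the level climbs with distance upstream, to 30.6%, and is flat inside the gene, whereas island cores are flat on both sides.

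At the start itself all levels occurred, and the fragments named here had at least 50 calls in the median VEH library. Among little methylated fragments, those nearest to a start included 6030405A18Rik, Paqr8 (a membrane progesterone receptor), 6330403A02Rik and Btbd3, at 3.09 to 7.85%. The 5 nearest at intermediate levels were at Cnga3 (a channel of cone photoreceptors), Mylk2 (the myosin light chain kinase of skeletal muscle), Daf2 (a complement regulator), Espnl (an actin bundling protein) and Phf17, at 28.6 to 57.0%. The 5 nearest over 80% with that many calls were at Hormad1, Gm17359, Arhgef4 (an exchange factor for small GTPases), Gpat2 and Sohlh1, at 86.4 to 95.5%. The fragment at Cnga3, 12 bp inside the gene, ran from 31.5 over a median of 54.3 to 69.9% in the 12 VEH libraries. In DDT it ran from 0.254 over 55.2 to 66.2%, and the lowest value was that of DDT replicate 4. The fragment at Sohlh1, 61 bp inside the gene, ran only from 89.3 over 90.6 to 92.3% in VEH.

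Intermediate levels were held tightly in some fragments. Among those between 20 and 80% with at least 10 VEH levels and at least 50 calls in the median VEH library, the smallest SDs between VEH libraries were at Arhgap40 (71.5% ± 1.40, n = 12), Ccna2 (74.4% ± 1.77), Cd2 (66.8% ± 1.94), Myog (78.4% ± 1.99) and Rfx8 (22.4% ± 2.03). Ccna2 codes for cyclin A2 of the cell cycle, Cd2 for an adhesion molecule of T cells and Myog for the muscle transcription factor myogenin. The fragment at Ccna2, 734 bp upstream, ran from 70.9 over 74.8 to 76.4% in VEH and from 66.7 over 74.0 to 99.9% in DDT. The highest of the DDT values was again DDT replicate 4, and the lowest was DDT replicate 12. The largest SDs were at Daf2 (57.0% ± 14.9), Noxa1 (61.1% ± 11.7), 1700101G07Rik (66.5% ± 11.01), Zfp831 (64.6% ± 10.5) and Inpp5d (56.6% ± 10.4). Noxa1 codes for an activator of NADPH oxidase and Inpp5d for a phosphatase of blood cells. At Daf2 the median VEH library had 79.5 calls.

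Promoters that hold both kinds of fragment showed the contrast within 1 gene. In 244 genes both kinds had a level in all 12 VEH libraries. The fragments outside the core were at 13.4% ± 0.6003 (SD, n = 12) and the core fragments at 6.44% ± 0.366. The difference was 6.93 percentage points (sign-flip permutation test, p = 0.000488). With a limit of 500 bp in place of 1000 bp it was 4.25 percentage points over 129 genes. The kinds were not matched for distance or CpG content. Over the 282 genes with both kinds tested, the median difference was 4.10 percentage points and 218 genes had the higher level outside the core. In 23 genes the gap was 20 percentage points or more, and no gene (0) had a core higher by that much. Ergic3, a protein of traffic between endoplasmic reticulum and Golgi, was at 88.2% outside and 4.45% in the core. Cldn11, a claudin of myelin and of the testis, was at 83.7% and 2.32%. Traf3ip1, a protein of cilia, was at 72.3% and 3.81%, Ccna2 at 74.4% and 6.58%, and Tnks1bp1 at 71.7% and 5.04%. The smallest differences were 0.158 percentage points at Lbr, the lamin B receptor, 0.0482 at Rassf5 and -0.0978 at Tmem63a.

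Within a gene, the fragments outside cores were often alike. In 486 genes with at least 2 tested fragments, the median range was 9.17 percentage points, and the range was under 10 in 257 and over 50 in 18. Among 736 pairs of adjoining fragments, which meet at the same MspI site, the median difference was 5.61 points and 8 pairs differed by more than 50. The widest range was at Tram1l1, which codes for a relative of a translocation factor of the endoplasmic reticulum. Its 5 fragments, from 546 to 981 bp inside the gene, were at 40.9, 8.69, 23.2, 79.98 and 96.4% in VEH. The means in DDT were 35.5, 11.3, 21.6, 81.2 and 96.2%, and the order was the same. Ankrd35 was at 94.9% ± 1.13 (SD, n = 12) 698 bp upstream and at 7.42% ± 0.973 in an exon. AC165162.1 was at 97.7% and 13.3% in adjoining fragments. Nfasc, a cell adhesion protein of the axon, was at 1.02 and 3.63% near its start and at 82.1% in the intron. Mc3r, a melanocortin receptor, was at 4.09% ± 1.502 (SD, n = 12) at 125 bp upstream and at 84.8% ± 2.25 in its exon.

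Genes of the brown fat and adipocyte list were little methylated at every tested fragment, as were most promoter fragments. The list, written with earlier results of these data known, named 50 genes of brown and other fat cells, of which 11 had a tested fragment. All 23 fragments were under 20%, as were 86.6% of all tested promoter fragments. Their median was 5.52% against 6.58% for all tested promoter fragments, and 5 of the 23 were low CpG. The lowest was at Slc27a2, an acyl-CoA synthetase of very long chain fatty acids, at 0.994% ± 1.79 (SD, n = 12). The highest was at Tbx15, a T-box transcription factor of brown fat, 97 bp upstream, where the 12 VEH libraries ran from 15.3 over 18.4 to 24.5%. The fragment with the smallest p for DDT was at Fabp4, the fatty acid carrier of fat cells, 201 bp inside the gene with 1 CpG in low CpG sequence. It ran from 5.88 over 10.3 to 13.7% in VEH and from 0 over 8.18 to 11.2% in DDT, so the groups overlapped (difference -2.44 percentage points, permutation test, p = 0.0561). Without DDT replicate 4, which was at 0%, the difference was -1.75. These levels do not check the tissue label, since the immune list had a median of 6.86% and the neuronal list one of 7.06%. The defining genes Ucp1 and Cidea were not analysed here.

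Genes of muscle, which shares an origin with brown fat, were split. Of 22 fragments at 13 genes, 14 were under 20% and 4 over 80%, and 12 were low CpG. Neb, the giant protein nebulin of the thin filament, was highest, 202 bp upstream, with VEH values from 91.2 over 94.7 to 95.9%. Fhl2, a LIM protein of heart muscle, was lowest, at 2.75% ± 0.905 (SD, n = 12). Myog was at 78.4% ± 1.99 and Mylk2 at 28.6% ± 7.31. The DDT libraries at Neb ran from 92.4 over 96.0 to 97.7%, and 6 of 11 lay above every VEH library (difference 1.47 percentage points, permutation test, p = 0.0163). The adjusted p of that fragment over all tested fragments was 0.869, and the groups overlapped.

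Germline genes stood at the other end, with 1 gene carrying much of the list. Of 11 fragments at 7 genes, 6 were over 80% and 2 under 20%, with a median of 81.6%. Hormad1 alone held 4 of the 11, and the median was the level of 1 of its fragments. Hormad1, a protein of the meiotic chromosome axis, was methylated at all 4 of its fragments, which ran from 177 bp upstream to the start of the gene. They were at 77.9% ± 2.20, 86.5% ± 1.90, 95.5% ± 1.41 and 81.6% ± 1.48 in VEH (SD, n = 12), although each met the island criteria. Sohlh1, a transcription factor of early germ cells, was at 90.5% ± 0.853 and Gpat2, an acyltransferase of the testis, at 89.7% ± 3.27. The lowest was Crispld1, a secreted protein, at 4.64% ± 4.54. At Sohlh1, the fragment with the smallest p in the list, the DDT libraries ran from 90.4 over 91.8 to 100%. Of these, 5 of 12 lay above every VEH library. The difference was 2.20 percentage points (unadjusted p = 0.00181 by permutation test and 0.0139 by ANOVA). No promoter fragment had an adjusted p under 0.869 (ANOVA with Benjamini-Hochberg adjustment). The library at 100% was DDT replicate 4, and without it the difference was 1.54.

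Most fragments of the immune, neuronal and liver lists were under 20%, with 1 fragment over 80% in each. In the epidermal list 3 of 5 were under 20% and none (0) over 80%. Of all tested promoter fragments, 86.6% were under 20%. Of 26 fragments at 16 genes of immune and blood cells, 22 were under 20% and 1 over 80%. Vav3, a signalling protein of lymphocytes, had no methylated call (0%) in any VEH library, with a median of 104.5 calls, and Rag1, which cuts antigen receptor genes in developing lymphocytes, was highest, at 92.2% ± 6.33 (SD, n = 10) with a median of 21 calls. Between these levels lay, among others, another Rag1 fragment at 76.5% and a Slamf8 fragment at 50.1%. Of 40 fragments at 18 neuronal genes, 33 were under 20% and 1 over 80%. Snap25 was lowest, at 0.495% ± 0.370 (n = 12), and the muscarinic receptor Chrm5 was highest, at 89.1% ± 10.3 with a median of only 33.5 calls. The 6 fragments at 2 liver genes ran from 1.74% at Foxa2, a transcription factor of liver and gut, to 94.0% ± 4.23 (n = 11) at Apoa2, an apolipoprotein of the liver. All of them but that at Apoa2 were at Foxa2. The 5 fragments at 3 genes of epidermis ran from 2.15% at S100a11 to 74.2% ± 2.51 at S100a16, both calcium binding proteins. The 2 low CpG fragments of that list were at 45.3 and 74.2%. Whether other cell types took a part in these levels was not tested.

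**Figure D4:**
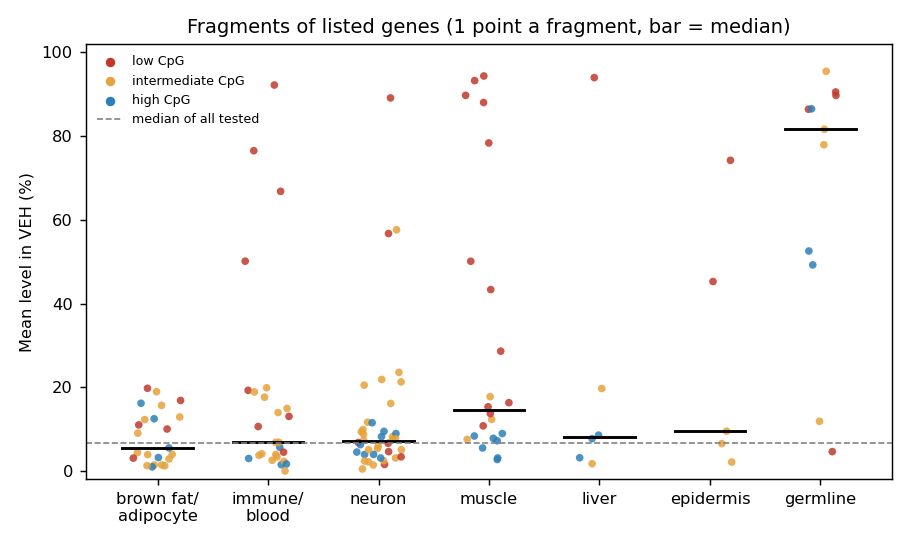
Mean level in VEH (y axis, percent) of each tested promoter fragment outside island cores (points, coloured by CpG class) for the genes of 7 lists (x axis), with the median of each list as a bar and the median of all 2048 fragments dashed. The 23 brown fat and adipocyte fragments all lie under 20%, as do 86.6% of all 2048 fragments, and 6 of the 11 germline fragments lie over 80%.

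The promoter sequences of the same genes were looked at for 3 short motifs on both strands, in RefSeq promoters of 250 bp before to 50 bp after the start. Of 892 genes, 625 had an entry by symbol. The SP1 type box GGGCGG was held by 61.8% of 655 promoters of genes with a mean fragment level under 20%. It was held by 25.8% of 31 promoters of genes over 80%. Among all 6498 promoters on chromosomes 1 to 3, including the part of chromosome 3 absent from the table, the share was 34.4%. The CCAAT box was held by 38.3, 45.2 and 35.6%. The TATA motif TATAAA was held by 8.09, 12.9 and 14.2%. GGGCGG contains a CpG, and the median CpG ratio of the promoters was 0.70 in the little methylated set and 0.31 in the methylated one; the motif and the CpG content moved together.

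DDT against VEH was then compared at each fragment, which asks whether the early exposure of the litter left a mark at promoters outside island cores. No fragment had an adjusted p under 0.05 (0 of 2048, ANOVA with Benjamini-Hochberg adjustment over all tested fragments), and the background over the whole table was 0% of 20225. The count was also 0 with limma, edgeR and a quasi-binomial regression. The smallest adjusted p was 0.869 by ANOVA, 0.838 by limma, 0.883 by edgeR and 0.203 by quasi-binomial regression. By ANOVA, unadjusted, 76 fragments passed 0.05, or 3.71%, against 4.18% of all tested fragments. Of these, 17 were higher in DDT, or 0.830% of those tested against a background of 1.25%, and 59 lower, or 2.88% against 2.93%. Shares of this size are near the background and are not a result about promoters. Mean levels in the groups lay close together, with a difference under 2 percentage points at 1470 fragments (71.8%), a median difference of -0.155 percentage points (-0.163 over all tested fragments) and a median standard error of 1.43. In the mean over the 1208 fragments covered by every library, VEH was at 9.72% ± 0.376 (SD, n = 12) and DDT at 9.66% ± 1.11 (n = 12), and the difference of -0.0654 percentage points was within the spread between libraries (permutation test, p = 0.852).

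**Figure D5:**
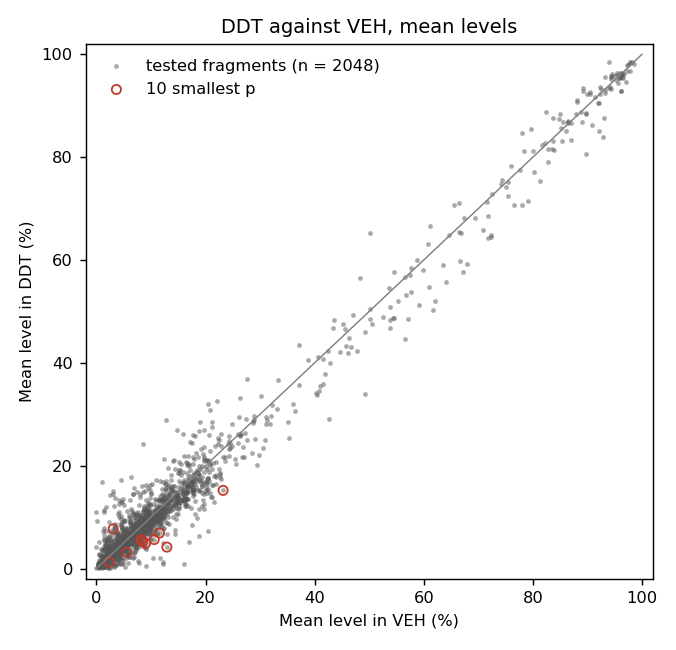
Mean level in DDT (y axis, percent) against mean level in VEH (x axis, percent) for the 2048 tested promoter fragments outside island cores, with the line of equality and the 10 fragments of smallest p circled. The points follow the line (Pearson's r = 0.99 over fragments), and the 10 circled fragments all have VEH levels under 25%.

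The direction depended on 1 library. The mean was lower in DDT at 57.2% of the fragments (56.9% of all tested), and at 49.3% (51.97% of all tested) once DDT replicate 4 was left out. Without that library, 79 of 2016 fragments had an unadjusted p under 0.05, 33 of them higher and 46 lower in DDT, which is 3.92% against 4.24% of all tested fragments. Without DDT replicates 3, 4 and 12 there were 74 of 1937, or 3.82% against 3.99%, with 29 higher. None of these settings gave a fragment with an adjusted p under 0.05 (0 fragments).

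The 10 fragments with the smallest p had small to moderate differences, and 9 of them were lower in DDT. In Urm1, which codes for a protein that adds sulphur to tRNA, an intronic fragment 564 bp inside the gene ran from 16.4 over 21.9 to 34.2% in the VEH libraries and from 8.82 over 14.5 to 22.03% in DDT. Of its 10 DDT libraries, 6 lay below every VEH library (difference -8.02 percentage points, SE 2.13, p = 0.0012 and adjusted p = 0.869, ANOVA). DDT replicate 4 had no level there. In Rprm, which codes for a protein that halts the cell cycle, the fragment 69 bp upstream ran from 5.54 over 8.58 to 11.4% in VEH and from 0 over 5.47 to 8.98% in DDT. It straddled an island edge and differed by -3.22 percentage points (SE 0.971, p = 0.00315), or by -2.74 without DDT replicate 4, which was at 0%. The only one higher in DDT was in Rhov, a small GTPase, which ran from 0 over 3.55 to 5.88% in VEH and from 1.43 over 6.52 to 16.7% in DDT. There 8 of 11 DDT libraries lay above every VEH library (difference 4.64 percentage points, p = 0.0027, adjusted p = 0.869).

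The others were Gm14399, Gm12500, Pi4kb (a lipid kinase of the Golgi), Ccdc93 (a subunit of an endosomal sorting complex), Lrrc8a (the core of the volume regulated anion channel), Cacybp (a calcyclin binding protein) and Cwc22 (a splicing factor), with differences from -8.75 to -1.08 percentage points, or from -8.34 to -0.967 without DDT replicate 4. At Ccdc93 all 12 DDT libraries were below the VEH median, from 0 over 3.25 to 5.09% against 3.73 over 5.12 to 9.38% in VEH, and 7 were below every VEH library. The DDT value of 0 was that of DDT replicate 4, with 15 calls, and without it the difference went from -2.39 to -2.10 percentage points. At Cwc22 the DDT libraries ran from 0.488 over 6.14 to 8.20% and the VEH libraries from 5.71 over 7.99 to 11.1%, a difference of -2.59 percentage points, or -2.13 without DDT replicate 4, the lowest. In each of the 10 the groups overlapped, and each kept an unadjusted p under 0.05 with any 1 library left out, the largest being 0.00856 at Cwc22. They were chosen for their p, so this is a description of the list.

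In the gene lists, an unadjusted p under 0.05 was found at 2 of 22 muscle fragments, both higher, at 1 of 11 germline fragments, higher, and at 1 of 40 neuronal and 1 of 6 liver fragments, both lower. None (0) was found at the 23 brown fat, 26 immune and 5 epidermal fragments. The share over all tested fragments was 4.18%, so counts this small are not a result about the lists. Without DDT replicate 4 the neuronal list had 2 fragments higher and 1 lower, the muscle list still 2 higher, of which Myog was no longer one, and the counts of the other lists were as before. The neuronal one was at Eef1a2, a translation factor of neurons and muscle, at 3.95% ± 0.499 in VEH and 3.07% ± 1.13 in DDT (SD, n = 12). The difference was -0.881 percentage points (unadjusted p = 0.0089 by permutation test and 0.0214 by ANOVA), or -0.611 without DDT replicate 4. The liver one was at Foxa2, where VEH ran from 4.35 over 19.0 to 37.0% and DDT from 4.55 over 11.4 to 20.8% (difference -8.23 percentage points, permutation test, p = 0.0164). None of the lists had a fragment with an adjusted p under 0.05 (0 fragments, ANOVA), and the median difference was between -0.44 percentage points in brown fat and in muscle and 0.18 in neuronal genes.

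The spread between libraries was larger in DDT. The SD between DDT libraries exceeded that between VEH libraries at 1618 of 2048 fragments, or 79.0%, against 79.2% of all tested fragments, and the median SD was 3.68 percentage points in DDT and 2.38 in VEH. Without DDT replicate 4 it was larger at 1382 of 2016 fragments (68.6%), and without DDT replicates 3, 4 and 12 at 1028 of 1937 (53.1%, against 53.5% of all tested fragments), where the medians were 2.31 and 2.28. These 3 of the 12 DDT libraries were chosen after the data were seen, and no VEH library was left out beside them. A smaller DDT spread can follow from that choice. Without DDT replicate 3 alone the share was 76.0%, and without DDT replicate 12 alone 76.5%. Why the spread was wider was not tested. Among fragments at middle levels in VEH, in DDT replicate 4 the one at Espnl was at 0.265% with 377 calls and that at Traf3ip1 at 0.279% with 359 calls, whereas Arhgap40 was at 99.8% with 882 calls. The VEH means of these fragments were 42.8, 72.3 and 71.5%.

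The limit of 1000 bp cut through a continuous range. Upstream, Stx16, Phgdh and Id1, at 992, 994 and 998 bp, were the last inside and stood at 14.4, 54.3 and 5.38% in VEH. Agpat2, Txndc9 and Mex3a, at 1006, 1011 and 1015 bp, were the first outside and stood at 91.9, 1.75 and 10.9%. Inside genes, Sulf2, Map1lc3a and Prdm14 were the last within the limit, at 5.33, 35.3 and 19.4%, and Slc27a2, Klhl23 and Lass6 the first beyond it, at 9.17, 16.1 and 12.9%.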

How the data were processed

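RRBS libraries of BAT from 24 litter pools at PND 12 (12 VEH, 12 DDT) were grouped by their labels. Per the sources used here, the authors trimmed reads with Scythe and Sickle, aligned them to GRCm38 with Bismark 0.15.0 and Bowtie2, and deposited counts of methylated and not methylated CpG calls per MspI fragment, which are not normalized. Whether the cytosine filled in at fragment ends was trimmed, and the annotation release, are not given in the sources used here. An untrimmed filled-in cytosine would count as not methylated and lower the level of short fragments. The table held 65535 fragments of chromosomes 1, 2 and part of 3; other chromosomes were not analysed here.

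The methylation level was 100 times methylated calls over all calls, where a library had at least 10 calls. Fragments with a level in at least 8 libraries per group were tested (20225, of which 2048 were promoter fragments outside cores). DDT and VEH were compared by an ANOVA F test per fragment, adjusted by Benjamini-Hochberg over all 20225. Single values were compared by permutation (100000 resamples) and differences within libraries by all 4096 sign flips. Alternatives were other call minimums and windows, quasi-binomial regression, limma 3.58.1 and edgeR 4.0.16 in R 4.3.3, a replicate block, a depth covariate and leaving out libraries. Levels and tests were computed in Python 3.11.15 with SciPy 1.17.1, pandas 2.3.3 and NumPy 2.4.6, and plots with matplotlib 3.10.9. The tests were first run on simulated data. Sequence came from GRCm38, and positions were checked with GENCODE M21 and RefSeq.

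The fragments and the gene lists were chosen with earlier results of these data known. The fragments named were the 10 with the smallest p, the lowest, the highest and the smallest p in each list, the 5 nearest to a start in each of 3 level classes, the 5 smallest and 5 largest SDs at intermediate levels, the 5 largest and 3 smallest differences within a gene, the 5 widest ranges within a gene, and the 3 on each side of each distance limit. Others are named as chosen after their values were seen. One fragment that this rule names is not reported here. Counting error does not cover PCR duplicates, since the reads carried no molecular identifiers.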

Additional observations from a re-analysis of the deposited data

How the results depend on the processing

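Of 163 recomputed values, 147 stayed the same by a set rule, 8 moved and 8 changed sign. Differences had to keep their direction and their side of the threshold, and shares to stay within the SD between libraries. Counts had to stay within a fixed factor of the main count, and a count of 0 had to stay 0. The count of promoter fragments with an unadjusted p under 0.05 was 76 (3.71%). With a level required in all 24 libraries it was 48 of 1208 (3.97%, against 4.24% of all tested fragments). By quasi-binomial regression it was 171 (8.35%, against 7.72%). It was 50 of 1563 with no island relation (3.20%, against 4.18%) and 30 of 654 below the island criteria (4.59%, against 4.18%). With 1 library left out the lowest count was 71, without VEH replicate 4 (3.50%, against 4.01%). The highest was 93, without DDT replicate 9 (4.62%, against 4.73%). These shares lie near the background. The count with an adjusted p under 0.05 (ANOVA, limma, edgeR or quasi-binomial regression) was 0 in every setting, and between 0 and 0 with 1 library left out. The mean difference between DDT and VEH (-0.0654 percentage points) was between -0.272 and 0.0722 with 1 library left out. It was above 0 without VEH replicate 12 (0.00443), DDT replicate 4 (0.0722), DDT replicate 7 (0.00459) or DDT replicate 12 (1.6e-05). It was 0.0225 without DDT replicates 3, 4 and 12, a setting chosen after seeing the data, as were those that use the island criteria. The difference between fragments within 250 bp and those more than 500 bp away was 0.211 in DDT libraries (permutation test, p = 0.0342), 2.43 with pooled calls and 1.64 with at least 3 CpGs. The cause was not tested.

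The share over 80% was 3.60% at a minimum of 20 calls. Below the island criteria, the shares under 20% and over 80% were 66.5% and 11.2%. The SD was larger in DDT at 1028 fragments without DDT replicates 3, 4 and 12, and at between 1382 and 1599 with 1 DDT library left out. The data did not show that the replicate numbers pair the libraries. Same-numbered libraries correlated between -0.18 and 0.20, 3 of 12 pairs were over 0.1, and 1 VEH library correlated best with its own number. With the replicate number as a block, 0 fragments had an adjusted and 94 an unadjusted p under 0.05 (4.59%, against 4.12% of all tested fragments). In that setting the mean difference had a permutation p of 0.860.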

Other observations

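Adjoining fragments could differ sharply over short distances, and the following pairs were chosen after their values were seen. Pramel7, of a gene family used in early embryos and the germline, went from 17.5% to 94.4% in VEH between neighbours. At E130311K13Rik a single fragment stood at 67.8% between neighbours at 1.64 and 1.61%. At Bpi, which codes for an antibacterial protein, and at Srms, a tyrosine kinase, the level went from 72.3% to 9.80% and from 61.0% to 10.2%.

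Fragments with 1 CpG had a median level of 17.8% in VEH (149 fragments), and those with 5 or more CpGs had one of 4.82% (1071 fragments). In DDT replicate 4, the fragment 17 bp upstream of Phf17 was at 99.1% with 219 calls, where the VEH mean was 48.4%, and DDT replicate 12 was at 73.3%.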
